A study of Mus musculus with 6 samples.

Results

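MHC class II molecules, and the proteins that load them with peptide, are described here through 10 genes: H2-Aa, H2-Ab1, H2-Eb1, Cd74, H2-DMa, H2-DMb1, H2-DMb2, H2-Oa, Ctss and Ciita. They were chosen by function, and each matched a single row among the 55359 genes of the count table through its Ensembl ID. All 10 passed the filter on low counts. The RNA came from cultures labelled as myeloid-derived suppressor cells (MDSCs), immature myeloid cells that dampen T cell responses. Bone marrow of C57BL/6 mice was cultured for 4 days in 40 ng/ml GM-CSF and 40 ng/ml IL-6, and the polymorphonuclear cells were then taken with a magnetic isolation kit. The treated group received mitochondrial DNA (mtDNA) at 250 ng/ml with a lipid transfection reagent, and its RNA was taken after 12 h (3 libraries). The other group is labelled blank (3 libraries), was grown and isolated in the same way, and carries no label that says whether the reagent was added. mtDNA and reagent therefore cannot be told apart, and no library holds cells given another DNA. Separate mice or cultures are not named in the labels, so the p-values below speak of library-to-library spread alone, and that spread may be technical.

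An MHC class II molecule is a pair of an alpha and a beta chain that shows peptides from endosomes to CD4 T cells. New chains leave the endoplasmic reticulum bound to the invariant chain Cd74, which fills the groove. In endosomes Cd74 is cut step by step, with cathepsin S (Ctss) as a main late protease in antigen-presenting cells, and H2-DM then exchanges the last fragment for a peptide while H2-DO restrains H2-DM. Ciita is the coactivator without which the class II genes are hardly transcribed. It binds no DNA itself and sits on RFX, CREB and NF-Y proteins at paired promoter elements named the X box and the Y box. Dendritic cells, B cells and macrophages carry class II, whereas mature neutrophils in general carry little.

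The markers of other cells bear on every level below. Neutrophil genes were abundant in part: S100a8 stood at 1698 and 1768 CPM (reads scaled to a common library size, here by the TMM method) in blank and mtDNA libraries and Mmp8 at 2545 and 2558, but Ly6g, which defines mouse neutrophils, stood at 4.87 and 5.81. Some genes of monocytes, macrophages and dendritic cells were abundant, with Csf1r at 1424 and 1552 CPM, Adgre1 at 501 and 535, Itgax at 425 and 430 and Ccr7 at 278 and 307. Other dendritic markers were low, with Flt3 at 6.52 and 7.90, Zbtb46 at 7.94 and 9.74, Clec9a at 6.33 and 4.55 and Cd209a at 0.61 and 0.48. Among monocyte and macrophage markers, Cx3cr1 stood at 2.34 and 2.17 CPM. The summed level of 12 macrophage and monocyte markers ranged from 3103 to 3212 CPM in blank and from 4088 to 4317 in mtDNA libraries. Of the 12, 8 rose, or 5 under library totals, upper-quartile factors or DESeq2, where 11.9% of all tested genes rose. The other 4, Adgre1 and Cx3cr1 among them, were not called. The largest differences in CPM within this sum were those of Ly6c2 (538 and 968) and Fcgr1 (56.4 and 327). For 10 dendritic markers the sums were 796 to 830 and 1016 to 1087. Of these 1 of 7 tested genes rose, Bst2 (64.5 and 265 CPM), which held the largest difference within the sum. For 7 B cell markers the sums were 20.8 to 26.6 and 26.3 to 28.5, where 0 of 4 tested genes were called. No marker of these 3 lists was at 0 in all libraries, although Xcr1 had only 2 reads, both in blank libraries. The part of these cell types in the class II values was not tested, and in such bulk RNA a change in the number of class II cells and a change in RNA per cell cannot be told apart. Neutrophil markers summed to 7490 to 7871 and 7789 to 8379 CPM. Of these 1 of 12 rose, Ngp, while upper-quartile factors gave 0 rises and 2 falls and library totals 0 and 4. T and NK markers summed to 16.7 to 18.8 and 21.2 to 24.8 (Il2ra rose, the only 1 tested, and Ncr1 was at 0). Eosinophil, basophil and mast cell markers summed to 190 to 210 and 218 to 235 (1 of 8 rose, Mcpt8). Upper-quartile factors, library totals and DESeq2 called neither Il2ra nor Mcpt8. Stromal and endothelial markers summed to 47.3 to 59.1 and 95.7 to 107 (1 of 3 tested rose, Kdr). Libraries held 4018360 to 4911103 reads, so that 1 read was worth 0.20 to 0.26 CPM.

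Promoter letters are shown first. A table of promoters from RefSeq (GRCm38.p6, 250 bases before to 50 after the start of a gene) matched 7 of the 10 genes. It did not match H2-Ab1, Cd74 and Ciita. The lines below give the 130 bases before the start, 5′ to 3′ on the strand of the gene. They come from chr17:34287824-34287953 on the minus strand (H2-Aa) and, on the plus strand, from chr17:34305737-34305866 (H2-Eb1), chr17:34153061-34153190 (H2-DMb1), chr17:34145119-34145248 (H2-DMb2), chr17:34092249-34092378 (H2-Oa) and chr3:95526656-95526785 (Ctss). Capitals mark ATTGG or its complement CCAAT, the core of the Y box (with the longer form CTGATTGG where present), AACNNATGA, letters found in the X box of several class II genes, and GAAANNGAA, letters of interferon response elements. The X box letters were picked after these promoters had been read, so which genes hold them is in part fixed by that choice.
H2-Aa: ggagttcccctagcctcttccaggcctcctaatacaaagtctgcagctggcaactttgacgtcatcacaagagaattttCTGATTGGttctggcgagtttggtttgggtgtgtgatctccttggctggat
H2-Eb1: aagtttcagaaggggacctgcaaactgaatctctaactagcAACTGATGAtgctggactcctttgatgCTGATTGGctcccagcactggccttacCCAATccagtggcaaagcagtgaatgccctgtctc
H2-DMb1: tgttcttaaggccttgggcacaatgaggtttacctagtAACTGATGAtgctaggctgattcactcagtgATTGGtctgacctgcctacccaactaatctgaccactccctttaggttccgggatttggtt
H2-DMb2: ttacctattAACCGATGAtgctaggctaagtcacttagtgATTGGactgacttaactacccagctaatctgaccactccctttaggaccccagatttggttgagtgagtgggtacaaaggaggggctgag
H2-Oa: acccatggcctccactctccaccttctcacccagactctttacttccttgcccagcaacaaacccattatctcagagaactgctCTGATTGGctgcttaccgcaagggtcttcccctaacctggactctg
Ctss: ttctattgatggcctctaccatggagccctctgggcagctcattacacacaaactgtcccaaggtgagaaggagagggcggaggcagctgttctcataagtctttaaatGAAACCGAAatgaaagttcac

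All 5 of the chain genes printed above hold ATTGG on their own strand between positions -90 and -39 from the start, and H2-Eb1, H2-DMb1 and H2-DMb2 hold the X box letters upstream of it with 21 or 22 bases between. Ctss holds neither, and it alone of the 7 holds GAAANNGAA, at positions -21 to -13. H2-DMa has 2 windows in the table, of which 1 holds ATTGG, from position -198, and neither holds the other letters. Searched on both strands of all 32851 windows of 300 bases, ATTGG was found in 37.4%, CTGATTGG in 4.1%, AACNNATGA in 2.85% and GAAANNGAA in 8.56%. Each CTGATTGG contains an ATTGG, so those counts overlap. Of the tested genes with GAAANNGAA, 203 of 808 (25.1%) rose, against 1062 of 8779 (12.1%) of tested genes with any window. Rises numbered 437 of 3776 tested genes with ATTGG, 81 of 579 with CTGATTGG and 23 of 176 with AACNNATGA. These shares were not compared by a test, and whether the letters bear on the rise of Ctss was not tested. A match is a string of letters and not a shown binding site. A missing match does not show that a gene lacks an X box, a Y box or another element.

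After mtDNA most of the class II genes differed little from blank cells, and the protease gene Ctss was the clear exception. H2-Oa was too thinly read to say, with a 95% interval of the ratio from 0.987 to 1.53. In edgeR's quasi-likelihood test with Benjamini-Hochberg adjustment, 3 of the 10 genes rose and 0 fell, at an unadjusted p under 0.05 also 3 and 0. Over all 11190 genes tested, 11.9% rose and 5.98% fell. The 3 were Ctss, H2-Aa and H2-Eb1. Only for these did the 3 mtDNA libraries all lie above the 3 blank libraries in TMM-scaled CPM, which 17.9% of all tested genes did. Scaled by the library total alone, this held for Ctss only. Ctss rose by 42.2%, H2-Aa by 12.1% and H2-Eb1 by 11.0%. The median log2 fold change (mtDNA minus blank) of the 10 was 0.09, against -0.01 over all tested genes. All 10 estimates were above 0, as were 48.0% of all genes. These small differences depended on the scaling between libraries: with library totals 4 of 10 estimates were above 0 (median -0.03, all genes -0.13), with upper-quartile factors 7 (median 0.01, all genes -0.09), and under both the only gene called was Ctss. With a trend on GC content removed, 5 were called, H2-Ab1 and Cd74 being added.

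**Figure D1:**
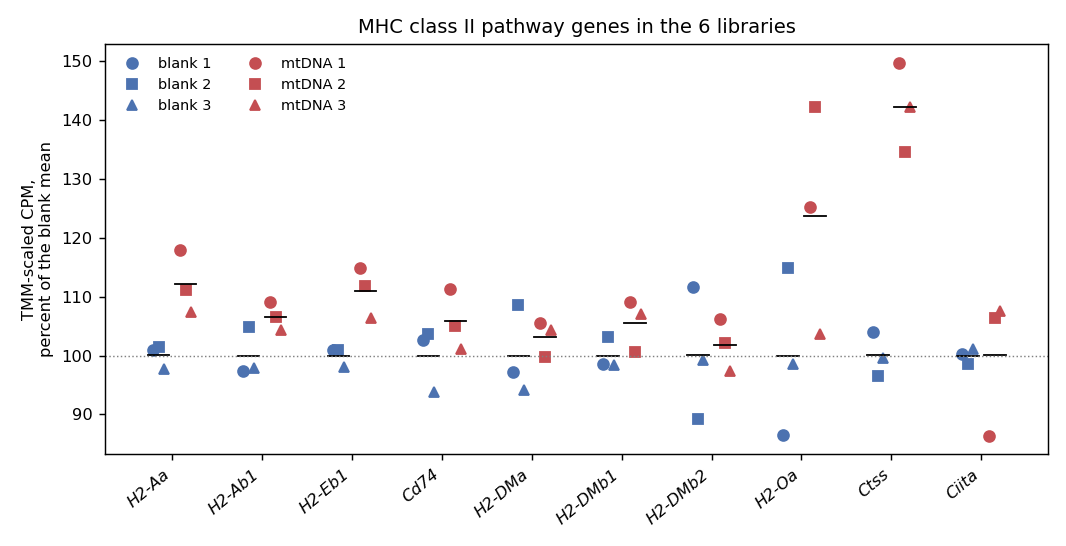
Level of each class II gene in each library, as TMM-scaled CPM in percent of the mean of the 3 blank libraries (vertical axis, not starting at 0). Blue symbols are blank and red symbols mtDNA libraries, with the replicate number as the shape and a black line at each group's mean. Ctss stands apart with all mtDNA libraries far above blank, H2-Aa and H2-Eb1 are narrowly separated, and the other 7 genes overlap.

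The chains themselves come first. H2-Aa (ENSMUSG00000036594), the alpha chain of the I-A molecule, stood at 1285, 1293 and 1245 CPM in blank 1, 2 and 3 and at 1503, 1416 and 1369 CPM in mtDNA 1, 2 and 3. The groups did not overlap, and mtDNA 1 was the highest library. Blank libraries averaged 1274 ± 26.0 CPM and mtDNA libraries 1429 ± 68.0 (SD, n = 3 each). On the log2 scale that is a difference of 0.17 with an SE of 0.046, and edgeR gave an adjusted p of 0.0146. The adjusted p rose to 0.173 with upper-quartile factors, to 0.441 with library totals, to 0.0831 without blank 3 and to 0.0559 without mtDNA 1, each of which ended the call. Scaled by the library total alone, in CPM, mtDNA 3 (1317) lay below blank 1 (1328) and blank 2 (1345).

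H2-Ab1 (ENSMUSG00000073421), the beta chain that pairs with H2-Aa, stood at 924, 995 and 929 CPM in blank and 1035, 1011 and 990 CPM in mtDNA libraries. Its groups overlapped, because blank 2 lay above mtDNA 3. The means were 949 ± 39.3 and 1012 ± 22.5 CPM (log2 fold change 0.09 ± 0.046, edgeR adjusted p = 0.192), and the 95% interval of the ratio ran from 0.997 to 1.14. It passed with the GC trend removed (log2 fold change 0.16, adjusted p = 0.015).

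H2-Eb1 (ENSMUSG00000060586), the beta chain of the I-E molecule, stood at 910, 909 and 884 CPM in blank and 1035, 1007 and 959 CPM in mtDNA libraries, without overlap. Scaled by the library total alone, mtDNA 3 (922 CPM) lay below blank 1 (940) and blank 2 (946). The log2 fold change was 0.15 ± 0.046 (edgeR adjusted p = 0.0262). Its adjusted p was 0.262 with upper-quartile factors, 0.623 with library totals, 0.112 without blank 3, 0.0787 without mtDNA 1 and 0.0945 without mtDNA 2, none of which passes. C57BL/6 mice carry a deletion that silences the matching alpha chain gene, H2-Ea, so they show no I-E on the cell surface. In these libraries H2-Ea-ps, as the annotation lists it, had 0 reads in blank and 1 in mtDNA libraries, below the filter, while H2-Eb1 had 12107 and 13281. The other beta chain genes were thinly read. H2-Ob, the partner of H2-Oa, had 127 and 128 reads and H2-Eb2 67 and 71 in all blank and all mtDNA libraries, and neither was called (edgeR adjusted p = 0.949 and 0.85).

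Cd74 (ENSMUSG00000024610), the invariant chain, was the most read gene of the 10 and ranked 9 among all genes in blank cells. It stood at 4128, 4172 and 3775 CPM in blank 1, 2 and 3 and at 4480, 4224 and 4073 CPM in mtDNA 1, 2 and 3. The groups overlapped, with mtDNA 3 below blank 1 and blank 2. The means were 4025 ± 218 and 4259 ± 206 CPM, a log2 fold change of 0.08 ± 0.047 (edgeR adjusted p = 0.264). The 95% interval of the ratio was 0.989 to 1.13, so a rise of more than 13.2% lies outside it. With the GC trend removed Cd74 passed (log2 fold change 0.13, adjusted p = 0.0426), and under library totals its estimate turned to -0.04.

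The peptide editor H2-DM is made of an alpha chain, H2-DMa, and a beta chain from either of the neighbouring genes H2-DMb1 and H2-DMb2. H2-DMa (ENSMUSG00000037649) stood at 246, 274 and 238 CPM in blank and 266, 252 and 264 CPM in mtDNA libraries, with both the highest and the lowest value in blank cells (log2 fold change 0.04 ± 0.059, edgeR adjusted p = 0.687). H2-DMb1 (ENSMUSG00000079547) stood at 163, 171 and 163 CPM in blank and 181, 167 and 177 CPM in mtDNA libraries, which overlapped (0.08 ± 0.057, edgeR adjusted p = 0.405). H2-DMb2 (ENSMUSG00000037548) was lower, at 45.4, 36.3 and 40.4 CPM in blank and 43.2, 41.6 and 39.6 CPM in mtDNA libraries (0.03 ± 0.098, edgeR adjusted p = 0.877). Blank libraries alone spanned the whole range of H2-DMb2. These counts are uncertain: 19.1% of the 75-base windows of the longest H2-DMb1 transcript also occur in H2-DMb2 transcripts, and 20% of those of H2-DMb2 occur in other genes. STAR's per-gene counts in general hold uniquely mapped reads, so reads from shared windows are lost to both genes. H2-DMa shares 360 exon bases with Brd2 on the other strand, and the strand setting of the counts is not given in the sources used here.

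H2-Oa (ENSMUSG00000024334), the alpha chain of the H2-DM inhibitor H2-DO, was the least read of the 10, with 57, 89 and 64 reads in blank 1, 2 and 3 and 76, 103 and 76 in mtDNA 1, 2 and 3. Scaled, that is 13.4, 17.8 and 15.3 against 19.4, 22.1 and 16.1 CPM, and mtDNA 3 lay below blank 2. The log2 fold change was 0.30 ± 0.15 (edgeR adjusted p = 0.2), the second largest estimate of the 10 with the widest interval, a ratio of 0.987 to 1.53. H2-Oa also shares 22.8% of its exon bases with BC051537 on the other strand, and 13.6% of its 75-base windows.

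Ctss (ENSMUSG00000038642), cathepsin S, stood at 1286, 1194 and 1232 CPM in blank 1, 2 and 3 and at 1853, 1665 and 1760 CPM in mtDNA 1, 2 and 3. The lowest mtDNA library lay well above the highest blank library, also when scaled by the library total alone (1603 against 1328 CPM). The means were 1237 ± 46.4 and 1760 ± 94.0 CPM, a log2 fold change of 0.51 ± 0.048 (edgeR adjusted p = 3.76e-08). Ctss was called in all 18 alternative settings, with log2 fold changes of 0.39 (library totals) to 0.55 (without mtDNA 2), and the call also passed against a fold of 1.2 (adjusted p = 0.000122). Its change was higher than that of 93.9% of tested genes. The 3 genes with the profile nearest to that of Ctss over the 6 libraries, among 7086 others with a mean of at least 20 CPM, were Myd88, the adaptor of Toll-like receptors, Cybb, a subunit of the phagocyte oxidase, and Cox15. Their root mean square distances were 0.024, 0.027 and 0.028 on the log2 scale, and their log2 fold changes were 0.51 ± 0.057, 0.49 ± 0.045 and 0.51 ± 0.082. All 3 rose (the highest edgeR adjusted p was 7.14e-05), which follows from their choice by closeness to Ctss and is no separate result. For the summed H2-Aa, H2-Ab1, H2-Eb1 and Cd74, the nearest genes included Cdc42, a small GTPase, and Nit1, at distances of 0.0091 and 0.017. Neither was called (edgeR adjusted p = 0.125 and 0.69). Their small changes likewise follow from the choice by closeness to the sum.

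Ciita (ENSMUSG00000022504), the class II coactivator, stood at 84.3, 82.8 and 85.0 CPM in blank 1, 2 and 3 and at 72.6, 89.3 and 90.4 CPM in mtDNA 1, 2 and 3. The mtDNA libraries lay on both sides of the blank ones, and mtDNA 1, the highest library for H2-Aa, H2-Ab1, H2-Eb1, Cd74, H2-DMb1 and Ctss, was the lowest for Ciita. Reads numbered 1127 in all blank and 1128 in all mtDNA libraries, with means of 84.0 ± 1.14 and 84.1 ± 9.99 CPM. The log2 fold change was 0.01 ± 0.078 (edgeR adjusted p = 0.952), and the 95% interval of the ratio ran from 0.899 to 1.13. Ciita shares 329 exon bases with Dexi on the other strand.

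The other genes of class II transcription moved unevenly. In that list of 24 genes, all tested, 9 rose and 1 fell, and the median log2 change was 0.14. For this list and the lists below, the values over all tested genes are 11.9% higher, 5.98% lower and a median of -0.01. The gene of the list that fell was Carm1, a coactivator methyltransferase (-0.35 ± 0.093, edgeR adjusted p = 0.0112). DESeq2, a test against a fold of 1.2 and the omission of blank 2 each gave 0 falls in the list, and library totals gave 2. Among the rises were those of Irf1 (1.42 ± 0.063, edgeR adjusted p = 1.07e-13), which carries interferon signals to many promoters, Ciita's among them, and of Nlrc5 (2.14 ± 0.084, edgeR adjusted p = 1.87e-14), the counterpart of Ciita for class I genes. Irf2, a relative of Irf1, rose by 0.57 ± 0.063 (edgeR adjusted p = 3.93e-07). Irf1 rose from 79.3 to 212 CPM, whereas Ciita had the values above. Of the RFX subunits that bind the X box, Rfx5 passed (0.35 ± 0.11, edgeR adjusted p = 0.0335), though 10 of 18 alternatives, among them DESeq2 (0.186), did not call it, and Rfxap and Rfxank did not (edgeR adjusted p = 0.326 and 0.653). The NF-Y subunit genes Nfya, Nfyb and Nfyc, whose products bind the Y box, had log2 fold changes of 0.04, 0.02 and 0.12, none called. The number of rises in this list was 4 under library totals or against a fold of 1.2, and 5 under upper-quartile factors, in DESeq2 or without blank 2. It was 6 without blank 1, blank 3, mtDNA 2 or mtDNA 3, or with no filter.

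The next list holds endosomal proteases, their inhibitors and other proteins that process endosomal cargo or Cd74. Of the 18 genes of that list, all tested, 11 rose and 0 fell, with a median log2 fold change of 0.19, and DESeq2 called 10 and 0. Sppl2a, the membrane protease that removes the last stub of Cd74 after Ctss has cut it, rose from 188 ± 16.2 to 352 ± 9.52 CPM (0.90 ± 0.060, edgeR adjusted p = 8.49e-11), the largest rise of the list. Ctsc, which activates granule proteases, rose by 0.47 ± 0.047, Unc93b1, a carrier of nucleic acid receptors to endosomes, by 0.50 ± 0.054, and Ctsb, an endosomal protease, by 0.33 ± 0.046 (the highest edgeR adjusted p was 1.37e-05). Lgmn, the asparagine-specific protease that can start the cutting of Cd74, rose by 0.25 ± 0.057 (edgeR adjusted p = 0.00333), which library totals ended (0.0794). Ifi30, the endosomal thiol reductase that opens disulfide bonds of antigens, had a log2 fold change of -0.11 ± 0.054 (edgeR adjusted p = 0.197) and was called lower under library totals (-0.23, adjusted p = 0.00336) and upper-quartile factors (-0.18, adjusted p = 0.0198). Rises in this list numbered 7 under upper-quartile factors and 4 under library totals, with Ifi30 as the 1 fall in both, and 3 against a fold of 1.2, where Ctsb and Lgmn were not called.

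In the list of class II turnover and traffic 6 of 23 tested genes rose and 1 fell, with a median of 0.06. March1, the ubiquitin ligase that marks surface class II for degradation, rose from 119 ± 2.94 to 151 ± 3.15 CPM (0.34 ± 0.058, edgeR adjusted p = 0.000145). Lamp2, a lysosomal membrane protein, rose by 0.38 ± 0.050 and Rab7, the GTPase of late endosomes, by 0.22 ± 0.045 (the higher edgeR adjusted p was 0.00124), the latter not under library totals (adjusted p = 0.0886). The tetraspanin gene Cd81 fell from 139 ± 10.2 to 108 ± 7.53 CPM (-0.36 ± 0.069, edgeR adjusted p = 0.000599). Library totals gave 3 rises and 2 falls in this list, and a test against a fold of 1.2 gave 0 of either.

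Class I genes are given for comparison. Of 13 tested class I genes 12 rose (10 under library totals, 9 against a fold of 1.2), with a median log2 fold change of 0.65. Among them were Tap1 (1.70 ± 0.063), Tapbp (1.24 ± 0.069), Psmb9 (1.23 ± 0.075) and the light chain B2m (0.87 ± 0.057), each with an edgeR adjusted p of at most 6.18e-11. Class I shares no gene with the 10 described here, and the marker and scaling limits above apply to both.

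**Figure D2:**
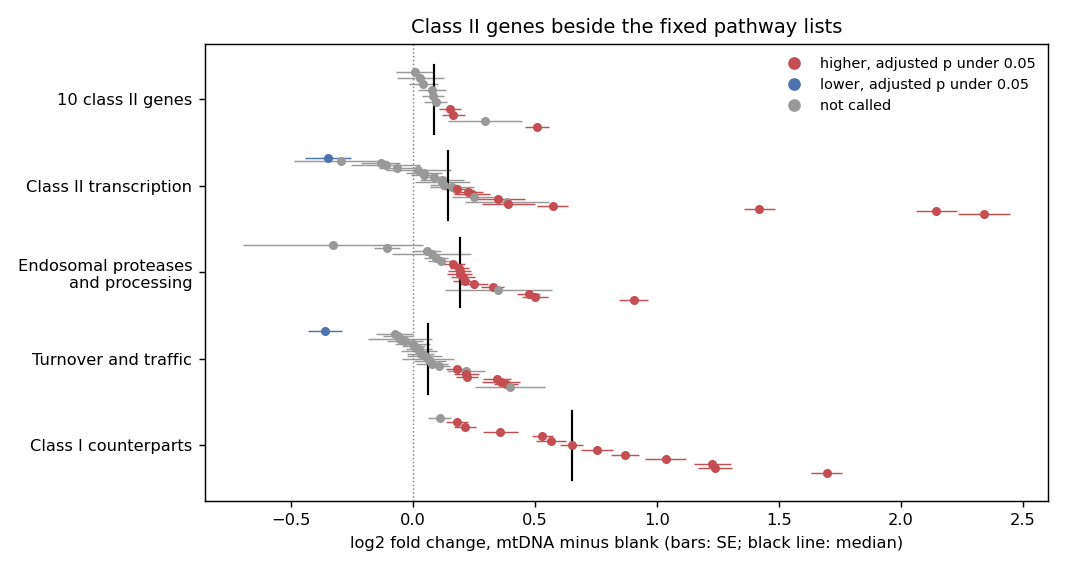
Log2 fold change (mtDNA minus blank, horizontal axis) of the 10 class II genes and of each tested gene in 4 lists of related genes. Points are genes with their SE, red where higher and blue where lower at an adjusted p under 0.05, grey where not called, and the black line is the median of each list, 0.09 for the class II genes and 0.65 for the class I counterparts.

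Ratios of read counts within a library do not depend on any scaling between libraries, and 8 were fixed. Ctss over Cd74 was 0.312, 0.286 and 0.326 in blank 1, 2 and 3 and 0.414, 0.394 and 0.432 in mtDNA 1, 2 and 3. The groups lay apart, a 1.34-fold difference (two-sided exact permutation p = 0.1, which no split of 3 and 3 can go below, and 0.267 when adjusted over the 8 ratios). Cd74 over B2m was 3.57, 3.74 and 3.57 in blank and 2.00, 2.19 and 2.14 in mtDNA libraries, a 0.581-fold difference with the same exact permutation p. Of its terms B2m rose (log2 fold change 0.87 ± 0.057) and Cd74 was not called (0.08 ± 0.047). H2-Aa over Cd74 was 0.311, 0.310 and 0.330 in blank and 0.336, 0.335 and 0.336 in mtDNA libraries. These 3 mtDNA values were nearly equal and lay above each blank value by a margin smaller than the spread of the blank libraries (1.06-fold, exact permutation p = 0.1).

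The other 5 ratios overlapped between the groups. H2-Eb1 over Cd74 was 0.224 ± 0.0087 in blank and 0.235 ± 0.0037 in mtDNA libraries, and H2-Ab1 over Cd74 was 0.236 ± 0.011 and 0.238 ± 0.0062 (exact permutation p = 0.2 and 0.8). H2-Aa over its partner H2-Ab1 was 1.34 ± 0.045 and 1.41 ± 0.036, and H2-Eb1 over H2-Ab1 was 0.950 ± 0.035 and 0.988 ± 0.018 (exact permutation p = 0.2 for both). H2-DMa over the sum of both beta chain genes was 1.22 ± 0.088 and 1.204 ± 0.013 (exact permutation p = 1), and blank 2 was its highest library at 1.33. Taken from the means of the log2 ratios, these 5 differed between the groups by folds from 0.986 to 1.05. Without blank 2 the H2-DM ratio turned to a log2 difference of 0.04.

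**Figure D3:**
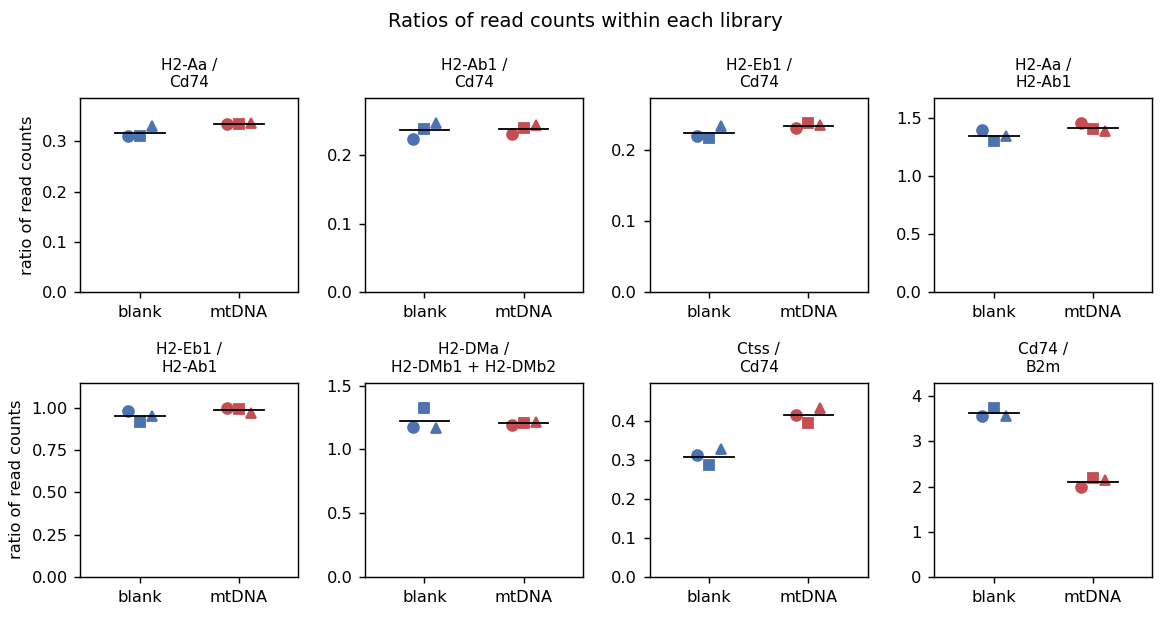
Ratio of read counts of the named genes within each library (vertical axes start at 0). Blue symbols are blank and red symbols mtDNA libraries, the shape gives the replicate number and the black line the mean. Ctss over Cd74 and Cd74 over B2m separate widely, H2-Aa over Cd74 narrowly, and the other 5 overlap.

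Together the 10 genes took 0.939%, 0.951% and 0.897% of all reads in blank 1, 2 and 3 and 0.991%, 0.953% and 0.937% in mtDNA 1, 2 and 3. The groups overlapped (0.929% ± 0.028 and 0.960% ± 0.028, exact two-sided permutation p = 0.4). Without Ctss the shares were 0.801% ± 0.030 and 0.792% ± 0.024 (exact permutation p = 0.7). As TMM-scaled CPM the sum ranged from 8605 to 9145 in blank and from 9739 to 10490 in mtDNA libraries, without overlap (exact permutation p = 0.1). The TMM factors were 1.04 to 1.05 in blank and 0.947 to 0.966 in mtDNA libraries, so the sum overlapped between the groups before that scaling and not after it. The groups also lay apart without that scaling when the 10 most counted genes, Cd74 among them, were left out. The shares were then 0.546% to 0.563% in blank and 0.592% to 0.619% in mtDNA libraries (exact permutation p = 0.1). Ctss was still counted in them. Scaled by the library total alone, Ctss took 1242 to 1328 CPM in blank and 1603 to 1750 CPM in mtDNA libraries. Shares that leave out both Ctss and the 10 most counted genes were not computed, so this separation is not shown for the class II genes apart from Ctss.

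**Figure D4:**
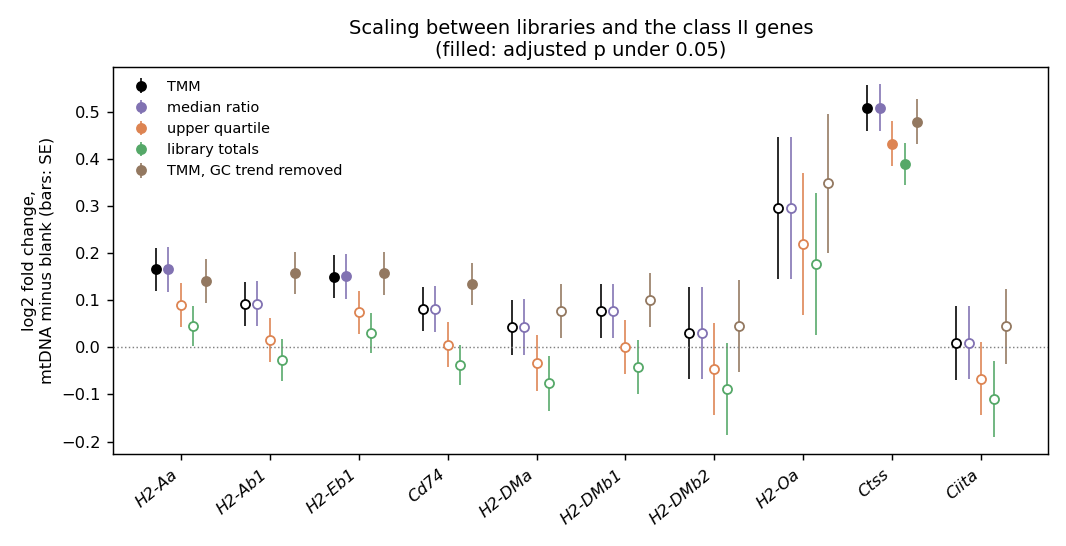
Log2 fold change (mtDNA minus blank, with SE) of each class II gene under 4 ways of scaling the libraries and with the GC trend removed. Filled points have an adjusted p under 0.05. Ctss is filled in each setting, H2-Aa and H2-Eb1 are open under upper-quartile factors and library totals, and 6 genes lie below 0 under library totals.

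Levels of different genes were compared per kilobase of transcript. With the longest transcript of each gene, Cd74 led in blank cells with 2855 ± 154.5 CPM per kilobase, followed by Ctss (913 ± 34.2), H2-Ab1 (783 ± 32.4), H2-Eb1 (540 ± 8.89), H2-Aa (395 ± 8.08), H2-DMa (126 ± 9.64), H2-DMb1 (118 ± 3.18), H2-DMb2 (27.4 ± 3.10), Ciita (13.99 ± 0.19) and H2-Oa (11.6 ± 1.65). The longest H2-Aa transcript (3223 bases) retains an intron. With the longest coding transcript (1128 bases) H2-Aa stood second, at 1130 ± 23.1 CPM per kilobase, and H2-Oa (14.3 ± 2.04) passed Ciita. H2-DMa and H2-DMb1 overlapped in blank libraries (119 to 137 against 116 to 122 CPM per kilobase), and with coding lengths so did H2-Oa and Ciita (12.3 to 16.4 against 13.8 to 14.2). The order thus ran from the invariant chain and the chains and protease, through the H2-DM genes, to H2-Oa and Ciita. In mtDNA cells Ctss, at 1299 ± 69.4 CPM per kilobase, stood level with H2-Aa at 1267 ± 60.2 (coding lengths).

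**Figure D5:**
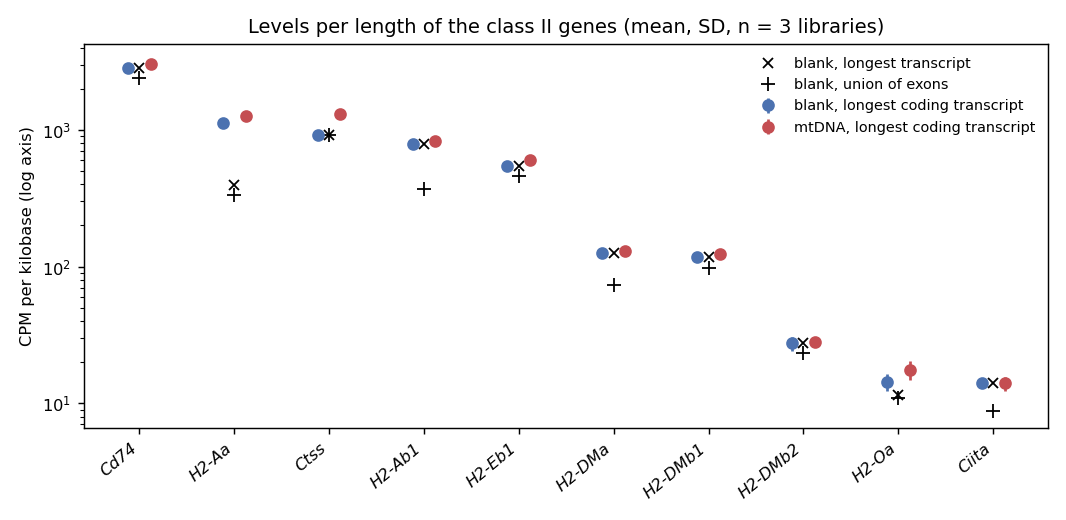
CPM per kilobase of each class II gene on a log axis. Circles with SD bars (n = 3 libraries per group) use the longest coding transcript, blue for blank and red for mtDNA, and black marks give the blank mean with the longest transcript (x) or the union of exons (+). Cd74 is highest under each length, and the place of H2-Aa moves most between lengths.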

How the data were processed

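The authors deposited raw counts of reads for each gene, 1 column per library. Per the submitters' processing notes, STAR 2.7.10a, FastQC and DESeq2 were used with GRCm39, and per the file headers the columns are STAR's per-gene counts. Per the labels' protocols, poly(A) RNA was read from directional libraries as single reads of 75 bases. The annotation release is not given in the sources used here, nor is the strand setting. Symbols and transcripts came from GENCODE M21 (GRCm38), which named 52083 of 55359 IDs.

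The test was that of edgeR 4.0.16 under R 4.3.3 (default filter, TMM factors, quasi-likelihood test, two-sided, Benjamini-Hochberg adjustment over 11190 genes, threshold 0.05), on all 6 libraries. CPM are TMM-scaled, and each SE was derived from a fold change and its F value. No 2 libraries of a group were alike enough to be 1 library deposited again (chi-square over degrees of freedom from 1.54 to 2.28). Ratios and shares had exact permutation tests over 20 assignments. The members, lists and tests were chosen with earlier results of these data known. The text names all 10 members, of each related list up to 4 genes with the smallest p, and the 3 nearest genes to Ctss and to the chain sum, though some genes picked by this rule are not reported here. Rfx5, Rfxap, Rfxank, Nfya, Nfyb and Nfyc are named as a class of cofactors, and H2-Ob, H2-Eb2, Lgmn, Ifi30, Carm1 and single markers after their values were seen. Alternatives were other scaling factors, filters, DESeq2 1.42.0, limma-voom (limma 3.58.1), robust dispersion, a fold of 1.2, a block, a GC correction and omission of each library. The use of coding transcripts was added after seeing the data. The scripts were first tested on simulated counts.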

Additional observations from a re-analysis of the deposited data

How the results depend on the processing

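Ctss was called higher in all 18 alternatives and no class II gene was called lower in any. The number of class II genes called higher was 3, but 1 (Ctss) under upper-quartile factors, library totals or a test against a fold of 1.2, and 5 with the GC trend removed, alone or with the block. It was 1 to 3 when a library was left out, with 1 without blank 3 or mtDNA 1, where H2-Aa and H2-Eb1 were both lost, and 2 without mtDNA 2, where H2-Eb1 was lost. Of uncalled genes, upper-quartile factors turned the log2 fold changes of H2-DMa (-0.034), H2-DMb2 (-0.046), Ciita (-0.066), H2-Ob (-0.053) and Nit1 (-0.0015). Library totals turned those of H2-Ab1 (-0.027), H2-DMa (-0.077), H2-DMb1 (-0.042), H2-DMb2 (-0.089), Cd74 (-0.038), Ciita (-0.109), H2-Ob (-0.095), H2-Eb2 (-0.022), Cdc42 (-0.010) and Nit1 (-0.044). H2-Ob was at -0.0067 with the GC trend removed and -0.0011 with the block added. Omitting a library gave ranges of -0.053 to 0.116 for H2-DMb2, -0.044 to 0.094 for Ciita, -0.180 to 0.276 for H2-Eb2 and -0.084 to 0.161 for H2-Ob. Of all genes, 1327 were higher and 669 lower. These became 970 and 1504 under upper-quartile factors, 861 and 2356 under library totals, and 590 and 55 against a fold of 1.2. DESeq2 called 224 lower, and omissions gave 1097 to 1191 higher and 410 (without blank 3) to 522 lower (437 without mtDNA 1). The difference in the share of reads was 0.031 percentage points, 0.11 on the TMM scale, 0.046 without the 10 most counted genes, and 0.015 to 0.0426 over omissions. Neighbouring title numbers as a block changed no call of a class II gene (correlations of deviations 0.040 to 0.045, and no pairing is stated). The cause of these shifts was not tested. H2-Oa, H2-Ob and H2-Eb2 rest on the fewest reads, 67 to 255 per group, and have the widest standard errors of the class II genes tested.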
